A study of Homo sapiens with 6 samples.

Results

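HuR sites were examined on 4 cytoplasmic noncoding RNAs, NORAD (LINC00657), OIP5-AS1, GAS5 and SNHG1. Members were all same-strand intervals of the 5 deposited site lists that overlapped the hg19 interval of one of these RNAs by at least 1 nt. NORAD was taken as chr20:34633544-34638882 on the minus strand (5339 nt) and OIP5-AS1 as chr15:41576203-41601901 on the plus strand (25699 nt). GAS5 was taken as chr1:173833038-173837125 (4088 nt) and SNHG1 as chr11:62619460-62623386 (3927 nt), both on the minus strand. The 4 RNAs held 66 of the 186157 sites of replicate 1, 92 of the 405048 of replicate 2 and 96 of the 550681 of replicate 3. They held 117 of the 658853 sites of the list that combines the 3 replicates, and 72 of the 373845 intervals of the combined list that the authors further limited by p.

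The RNA came from HEK293, an established human embryonic kidney line, grown without any treatment that the labels name. Cell lysate was cut with micrococcal nuclease, and HuR-bound fragments were recovered with the monoclonal antibody 3A2 in 3 immunoprecipitations. Another 3 immunoprecipitations with normal mouse serum served as negative controls. The controls were not analysed here as separate values, so no comparison of HuR with control could be tested. The labels say that digested lysates were pooled before the immunoprecipitations, so each SD over the 3 HuR replicates may cover technical spread only. The score of a site is the authors' LOD, whose formula the sources used here do not give. Its range differs between lists. Scores are therefore given as percentiles within their own list, where 50 is the list median. Read depth is unknown, and RNA abundance was not measured in the files used here, so the amount of an RNA and its occupancy by HuR cannot be told apart.

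HuR, the product of ELAVL1, is an RNA-binding protein that prefers U-rich and AU-rich single-stranded RNA and moves between nucleus and cytoplasm. It is known for stabilising mRNAs, and it also binds introns and noncoding RNAs. NORAD is an abundant, unspliced RNA that is induced by DNA damage and known for its part in keeping the genome stable. OIP5-AS1, the human counterpart of cyrano, is known for a conserved, extensively paired miR-7 site and has been described as a binding partner of HuR. GAS5 and SNHG1 are spliced host transcripts whose introns release small nucleolar RNAs, which guide modification of ribosomal RNA, and their exons form short-lived cytoplasmic RNAs.

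The sequences that these RNAs offer to HuR were read from GENCODE 29 transcripts, which are on GRCh38. They were not joined to the hg19 sites, and positions are counted from the transcript's 5′ end. For each RNA the longest transcript not typed as a retained intron was used. NORAD-201 has 1 exon of 5339 nt, OIP5-AS1-201 has 4 exons and 8829 nt, GAS5-222 has 12 exons and 1007 nt, and SNHG1-206 has 10 exons and 1487 nt. The most U-rich 30 nt of each are shown because HuR is known for such letters, with every U (written T) in capitals.
NORAD, positions 2005 to 2034: TTTTTcTaTaTgTTTTgTgcaTTTTgTTTT
OIP5-AS1, positions 1405 to 1434: TTTgaTTTTTaTTTaTTTaTTTaTTTaTTT
GAS5, positions 188 to 217: TaTTTccaTTagTgTTTcTTTTTTcTTTTT
SNHG1, positions 36 to 65: TcTTTTgTacTTTgTcTTTTTcTTTTaTTT

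These windows hold 21, 23, 21 and 22 U in the order shown. They were set against other long noncoding transcripts of like length, the shorter of the compared lengths being at least 80% of the longer. A window at least as rich was found in 45.6% of 410 such transcripts for NORAD and in 35.6% of 73 for OIP5-AS1. For GAS5 the share was 7.64% of 4214 and for SNHG1 9.64% of 2781. The OIP5-AS1 stretch repeats ATTTA, the core letters of AU-rich elements. Overlapping copies counted, on the RNA strand only, OIP5-AS1 held 61 TTTTT and 21 ATTTA and NORAD held 23 and 13. GAS5 held 7 TTTTT and no ATTTA, and SNHG1 held 3 TTTTT and 2 ATTTA. These counts follow transcript length. Per kb, TTTTT stood at 6.95 on GAS5, 6.91 on OIP5-AS1, 4.31 on NORAD and 2.02 on SNHG1. Of the transcripts of like length, 11.5%, 24.7%, 47.6% and 52.6% were at least as dense, in that order. ATTTA stood at 2.43 per kb on NORAD, 2.38 on OIP5-AS1 and 1.34 on SNHG1, with 22.7%, 26.0% and 40.2% at least as dense. At least 1 TTTTT occurred in 97.1%, 100.0%, 69.1% and 84.9% of the transcripts of like length for NORAD, OIP5-AS1, GAS5 and SNHG1, and at least 1 ATTTA in 96.3%, 100.0%, 62.1% and 75.4%.

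OIP5-AS1-201 held 3 matches to bases 2 to 8 of miR-7. Before the middle match, an unbroken run of 14 nt paired with the 3′ part of the miRNA, against runs of 5 and 3 nt at the others. The mature miRNA, from RefSeq on GRCh38.p14, is shown with its seed in capitals, and the OIP5-AS1 site with the paired stretches in capitals.
hsa-miR-7-5p: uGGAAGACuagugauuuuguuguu
OIP5-AS1, positions 2869 to 2894: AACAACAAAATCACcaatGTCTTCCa

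HuR sites covered the largest share of the NORAD interval and the smallest of the GAS5 interval when all sites of each list were used. These shares are of the whole genomic interval, introns included. On GRCh38, exons of the transcripts named above make up 100% of the gene for NORAD, 34.3% for OIP5-AS1, 37.9% for SNHG1 and 20.2% for GAS5. Cover of exons alone was not analysed, so the shares do not compare the spliced RNAs. NORAD was covered at 16.1% of its interval in replicate 1, 31.7% in replicate 2 and 21.2% in replicate 3, a mean of 23% ± 7.93 (SD, n = 3). OIP5-AS1 was covered at 7.63%, 18.2% and 16.0%, a mean of 13.9% ± 5.59 (SD, n = 3). For SNHG1 the shares were 6.62%, 15.6% and 12.4%, a mean of 11.5% ± 4.53 (SD, n = 3). GAS5 had 6.12%, 9.66% and 8.44%, a mean of 8.07% ± 1.80 (SD, n = 3). Replicate 1, whose list is the shortest, gave the lowest share for each of the 4 RNAs, and replicate 2 the highest.

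Within each replicate the order was NORAD, OIP5-AS1, SNHG1, GAS5. NORAD exceeded OIP5-AS1 by 9.03 ± 4.13 percentage points and GAS5 by 14.9 ± 6.29 (SD over 3 replicates). The ranges of NORAD and OIP5-AS1 overlapped across replicates, while every NORAD value lay above every GAS5 and SNHG1 value. OIP5-AS1 exceeded SNHG1 by 2.43 ± 1.32 points, and GAS5 minus SNHG1 was -3.45 ± 2.73 points. The smallest two-sided p that an exact permutation of signs allows with 3 replicates is 0.25, so the order is given as a description.

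The lead of NORAD depended on which sites of each list were kept. Keeping only sites with a LOD above 1, the mean covered share was 19.4% on NORAD and 12.9% on OIP5-AS1, and with a LOD above 2 it was 17.2% and 11.4%. With each list limited to its 186157 highest-scoring sites, the number in replicate 1, NORAD kept 2 of 17 sites in replicate 2 and 2 of 23 in replicate 3. The lowest LOD kept was then 4.74 in replicate 2 and 4.41 in replicate 3, so list length and score threshold changed together. The covered share of NORAD was then 4.03% and 4.96% in these replicates. OIP5-AS1 kept 14 and 16 of its 56 sites in each and had 6.50% and 5.82%. NORAD thus lay below OIP5-AS1 and GAS5 in replicates 2 and 3, and the order held only in replicate 1, where nothing was removed. GAS5 moved least, to 5.50% and 5.26%, with 3 sites kept in each.

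**Figure D1:**
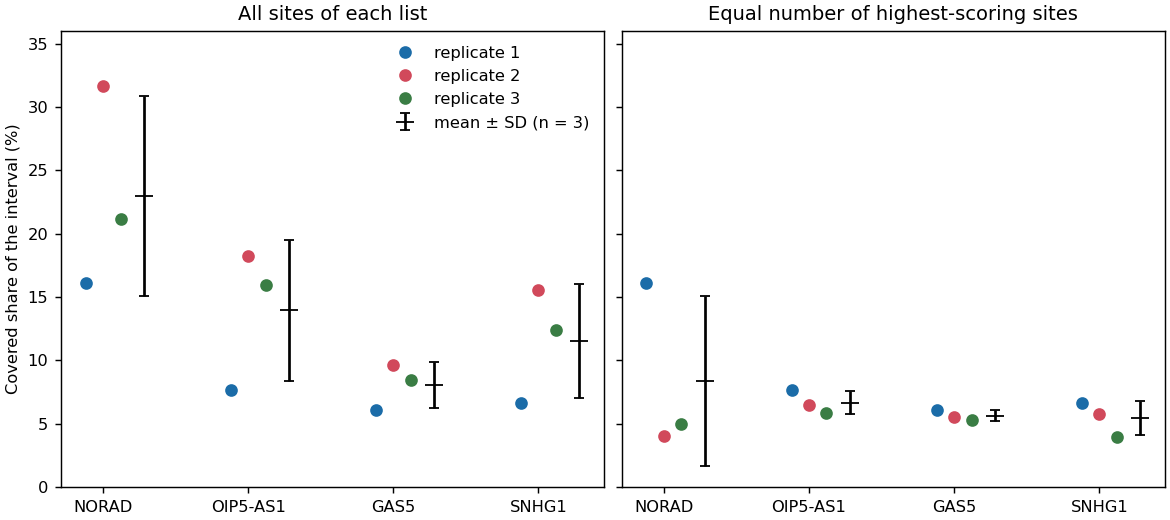
Share of the bases of each RNA's interval under a HuR site (%, y axis) for NORAD, OIP5-AS1, GAS5 and SNHG1, with 1 point per replicate and bars for mean ± SD (n = 3). Intervals include introns. With all sites (left) NORAD lies highest in every replicate, at 16.1% to 31.7%, and with 186157 sites per list (right) its values for replicates 2 and 3 lie at 4.03% and 4.96%.

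All 4 RNAs were densely covered for the places where HuR sites were called at all. Against 147728 strand-specific 5-kb windows that hold a combined site, NORAD stood at percentile 99.4, 99.2 and 97.5 in the order of the replicates, with a mean of 98.7 ± 1.05 (SD, n = 3). OIP5-AS1 stood at 96.1 ± 1.09, SNHG1 at 94.2 ± 2.47 and GAS5 at 89.8 ± 5.51 (SD, n = 3 each). The median window had 0%, 1.30% and 2.00% of its bases under sites in the 3 replicates. The RNAs have other lengths than 5 kb, and windows reach beyond transcripts, so these ranks describe crowding only.

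Beside the RNAs, the share under sites was highest before OIP5-AS1. No replicate had a same-strand site within 5 kb on either side of NORAD or before the 5′ end of GAS5 and SNHG1. After the 3′ end, the 5 kb were covered at 1.70% ± 1.05 for GAS5, 3.42% ± 2.20 for SNHG1 and 1.30% ± 0.608 for OIP5-AS1 (SD, n = 3). For SNHG1 the shares were 0.90%, 4.98% and 4.38% in replicates 1, 2 and 3. In replicates 2 and 3 they include part of a site that crosses the 3′ end of SNHG1. The 5 kb before OIP5-AS1 were covered at 10.8%, 12.4% and 10.8% in replicates 1, 2 and 3. With 10 kb the shares were 5.55%, 6.90% and 5.80%. The 11 combined sites within 5 kb lay between 2143 and 4363 nt before the interval. On GRCh38, GENCODE 29 places CHP1, a protein-coding gene, on the same strand within 5 kb before OIP5-AS1.

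**Figure D2:**
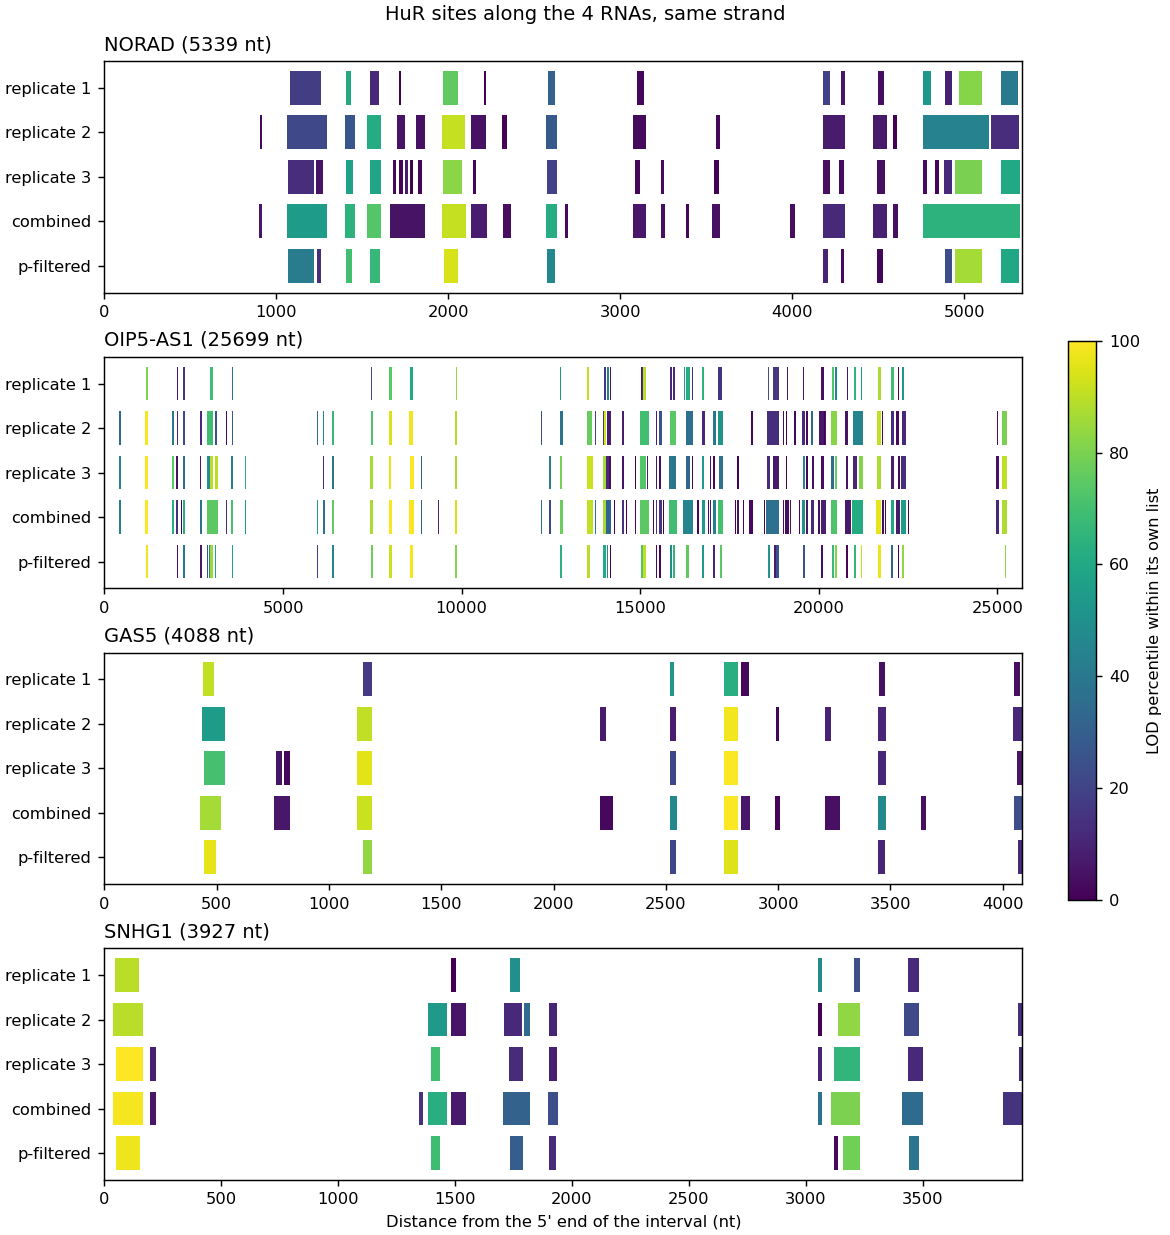
HuR sites along NORAD, OIP5-AS1, GAS5 and SNHG1, with distance from the 5′ end of the hg19 interval in nt on the x axis and 1 row per list (replicates 1 to 3, combined, p-filtered). Colour gives the LOD percentile of a site within its own list. NORAD has no site before position 898, and OIP5-AS1 has a crowded stretch of mostly dark, low-scoring sites after about the middle. GAS5 and SNHG1 have few sites on their shorter intervals.

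Each interval was cut into 10 equal segments, numbered from the 5′ end. On NORAD, HuR sites gathered in 2 places, segments 3 to 5 and the 3′ end. Segment 1 had no site in any list. Segment 3 was covered at 47.8%, 67.2% and 53.2% in replicates 1, 2 and 3, and segment 10 at 50%, 94.9% and 61.8%. Between them, segment 7 was covered at 0%, 4.68% and 8.43%. All 3 replicates thus had the same 2 peaks with a trough between them.

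The site of NORAD with the highest combined LOD, 12.5, was chr20:34636781-34636920, at positions 1963 to 2102 of the interval. It stood at percentile 91.2 of the combined list and at 75.6, 91.0 and 82.5 in replicates 1, 2 and 3, so it was above the median of each list. The U-richest window of NORAD-201, shown above, lies at positions 2005 to 2034 of a transcript of the same length, but the builds were not aligned. Next came chr20:34637276-34637355, with a combined LOD of 8.92, at percentiles 11.1, 61.6 and 58.6 in the replicates. Its standing thus differed widely between replicate 1 and the others.

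The 3′ end of NORAD carried the widest site of the 4 RNAs, chr20:34633556-34634120, with 565 nt. It was wider than 99.9% of combined sites. Its combined LOD of 7.82, the next in order on NORAD, stood at percentile 64.2. Replicate 1 covered 310 nt of it, replicate 2 covered 550 nt and replicate 3 covered 350 nt. The p-filtered list split it into 3 intervals that kept 295 nt, and the highest of these stood at percentile 86.5 of that list. The longest stretch of NORAD called in all 3 replicates lay elsewhere, at chr20:34637666-34637805, with 140 nt.

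HuR sites covered OIP5-AS1 unevenly along its length. Segments 6 to 9, positions 12851 to 23129, were the longest run of segments covered above the RNA's own share in the combined list. They were covered at 13.6%, 32.5% and 26.4% in replicates 1, 2 and 3, against 3.63%, 8.72% and 9.05% for the rest of the RNA. This stretch held 71.4%, 71.3% and 66.0% of the covered bases in the same order. The stretch was chosen by the cover of the combined list, which combines these same 3 replicates. The shared direction of the difference in the replicates is therefore not independent support.

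Sites in this crowded stretch of OIP5-AS1 scored lower than those outside it. Of its 48 combined sites, 27 were in the lowest score decile, with a median percentile of 6.79. The 27 sites outside had 3 in the lowest decile and a median percentile of 52.2. In the replicates the medians were 43.6 inside against 55.7 outside, 11.4 against 39.0 and 7.60 against 54.3. The p filter kept 21 of the 48 sites inside, or 43.8%, and 15 of the 27 outside, or 55.6%, against 52.3% of all combined sites. The difference in these shares was not tested. In GENCODE 29, 1 exon of 8494 nt makes up 96.2% of OIP5-AS1-201, and exons of that transcript make up 34.3% of the gene on GRCh38. Which of the hg19 sites are exonic was not analysed here.

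The sites of OIP5-AS1 with the highest combined LOD all lay before the crowded stretch. The site chr15:41577341-41577420, 80 nt wide at position 1139, had a combined LOD of 18.3 and stood at percentiles 80.8, 98.8 and 99 in replicates 1, 2 and 3. The site chr15:41584736-41584860 had 17.4 and percentiles of 60.6, 98.0 and 99.7. The site chr15:41584156-41584240 had 17.3 and percentiles of 74.1, 94.4 and 96.6. All 3 sites were above the median of each replicate list, and in the top decile of replicates 2 and 3 but not of replicate 1. Within the crowded stretch the highest was chr15:41597816-41597955, with a combined LOD of 14.7 and percentiles of 87.4, 90.3 and 87.6; it was named after its values were seen.

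The widest site of OIP5-AS1 was a low-scoring one. The site chr15:41594731-41595085 had 355 nt and a combined LOD of 5.39, with percentiles of 15.8, 13.2 and 6.93 in the replicates. It nevertheless held the longest stretch of OIP5-AS1 called in all 3 replicates, chr15:41594931-41595075, with 145 nt.

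**Figure D3:**
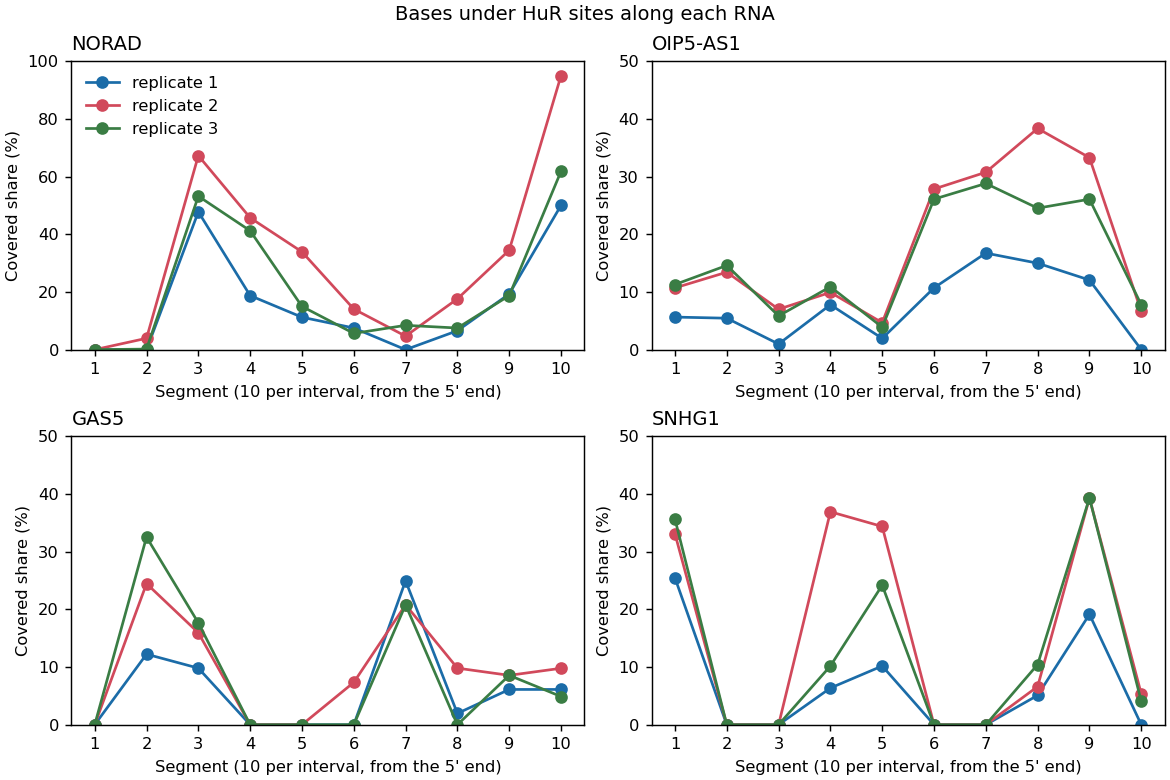
Share of bases under HuR sites (%, y axis) in each of the 10 segments of the interval from the 5′ end (x axis), with 1 line per replicate and a panel each for NORAD (axis to 100%), OIP5-AS1, GAS5 and SNHG1 (axes to 50%). NORAD reaches 47.8% to 67.2% in segment 3 and 50% to 94.9% in segment 10, while most of the cover of OIP5-AS1 is in segments 6 to 9.

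GAS5 carried few HuR sites on its short interval, and 1 of them had the highest combined LOD of the 4 RNAs. Replicates 1, 2 and 3 listed 7, 9 and 8 sites on it. Per kb this was 1.96 ± 0.245 sites (SD, n = 3), beside 1.95 ± 0.404 on OIP5-AS1, 2.12 ± 0.530 on SNHG1 and 3.43 ± 0.780 on NORAD. The mean of the replicates' median site widths was 33.3 nt on GAS5, 57.5 nt on OIP5-AS1, 49.2 nt on SNHG1 and 48.3 nt on NORAD. The leading site, chr1:173834306-173834365, had a combined LOD of 18.7, at percentile 99.5. Its replicate percentiles were 62.7, 98.4 and 99.3. The same 60 nt, with identical ends, were called in all 3 replicates and kept whole by the p filter. This was also the longest stretch of GAS5 called in all 3.

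A further pair of strong GAS5 sites lay nearer the 5′ end and changed places between replicates. The site chr1:173835936-173836000 had a combined LOD of 12.7 and percentiles of 17.5, 90.6 and 95.7. The site chr1:173836606-173836700, the widest on GAS5 with 95 nt, had 11.2 and percentiles of 90.8, 55.0 and 70.4. Replicate 1 thus ranked the second high and the first low, while replicates 2 and 3 ranked them the other way. No list had a site in segments 1, 4 and 5 of GAS5. RefSeq on GRCh38 lists 11 small nucleolar RNA genes within GAS5, and exons of GAS5-222 make up 20.2% of the gene in GENCODE 29. Whether a site fell in an exon, an intron or a small nucleolar RNA was not analysed here.

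SNHG1 had its strongest HuR site at its 5′ end. The site chr11:62623221-62623350, at positions 37 to 166, had a combined LOD of 16.9 and stood at percentiles 89.5, 89.5 and 99.8 in replicates 1, 2 and 3. Among the single highest combined site of each RNA it varied least between replicates, with a mean percentile of 92.9 ± 5.96 (SD, n = 3), and the widest on SNHG1 with 130 nt. All 3 replicates called 95 nt of it, chr11:62623241-62623335.

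The other sites of SNHG1 lay mostly in segments 4 and 5 and in segments 8 to 10. Segments 4 and 5 were covered at 6.36% and 10.2% in replicate 1, 36.9% and 34.4% in replicate 2, and 10.2% and 24.2% in replicate 3. Segment 9 was covered at 19.1%, 39.3% and 39.3%. It held most of chr11:62620156-62620280, with a combined LOD of 9.94 and percentiles of 23.8, 83.5 and 65.5. The next highest, chr11:62621921-62622000, had 7.64, a site in replicates 2 and 3 at percentiles 53.8 and 69.6, and none in replicate 1. No list had a site in segments 2, 3, 6 and 7. RefSeq on GRCh38 lists 9 small nucleolar RNA genes within SNHG1.

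Most HuR sites on these RNAs scored below the list median in the replicate and combined lists, with a few high exceptions. In the p-filtered list, OIP5-AS1 had 21 of 46 sites below the median, NORAD 7 of 12, GAS5 3 of 6 and SNHG1 5 of 8. On NORAD, 11 of 15, 15 of 17 and 18 of 23 sites were below the median in replicates 1, 2 and 3, and the median percentile was 9.21 ± 7.53 (SD, n = 3). It was 14.6 ± 3.73 for GAS5, 21.9 ± 12.5 for SNHG1 and 32.2 ± 8.69 for OIP5-AS1 (SD, n = 3 each). NORAD had the lowest median in replicates 2 and 3, while in replicate 1 its 17.6 lay beside 17.5 for GAS5. In the combined list, 50 of the 117 sites, or 42.7%, were in the lowest score decile, against 10.7% of all combined sites. The highest decile held 10 of the 117, or 8.55%, against 10% of all combined sites, a share near the background.

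**Figure D4:**
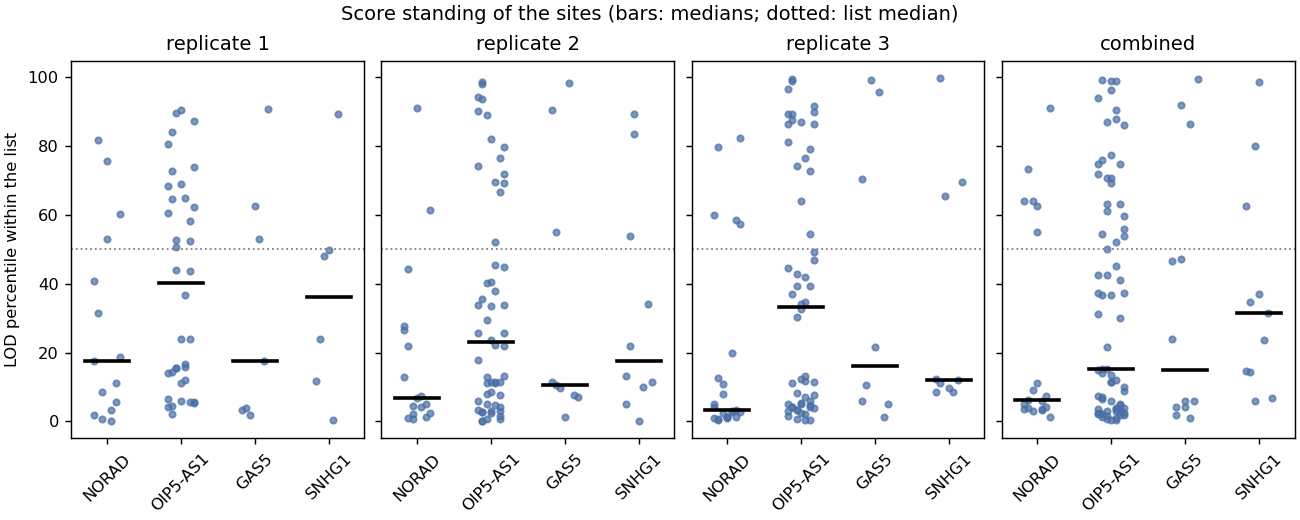
LOD percentile within the list (y axis) of every site on NORAD, OIP5-AS1, GAS5 and SNHG1, with a panel each for replicates 1, 2 and 3 and the combined list. Black bars are medians and the dotted line is the list median. Medians lie between 3.14 and 40.2 in the 12 groups of replicate sites, with single sites of each RNA above percentile 80.

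Sites on the 4 RNAs were found in all 3 replicates more often than combined sites as a whole, although they scored lower. Of the 117 combined sites, 51, or 43.6%, overlapped a site in each replicate, against 22.9% of all combined sites. By RNA, these were 11 of 19 on NORAD, 29 of 75 on OIP5-AS1, 6 of 12 on GAS5 and 5 of 11 on SNHG1. Sites in no replicate were also more frequent, with 23 of 117, or 19.7%, against 11%. When at least 50% of a site had to be shared, 23.9% of the 117 were in all 3 replicates against 14.5% of all combined sites. The sites were wider than most: 27, or 23.1%, had at least 100 nt against 12.7% of all combined sites, and 9, or 7.69%, had at least 200 nt against 2.21%. The part of width in the recurrence was not tested, and the shares are given as descriptions.

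Recurrence of low-scoring sites was most visible on NORAD. Of its 12 combined sites in the lowest decile, 4 were in all 3 replicates, and of the 30 on OIP5-AS1 also 4. Over the 4 RNAs this was 8 of 50, or 16.0%, against 3.7% of all combined sites in that decile. The site chr20:34637016-34637220 of NORAD, named after its values were seen, is an example with 205 nt and a combined LOD of 1.39. It was called in all 3 replicates, at percentiles of 0.00322, 4.23 and 1.08, but replicate 1 called only 15 of its nt. The count thus rests on the rule of 1 shared nt.

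How often the authors' p filter kept these sites, set beside all combined sites, depended on the rule. With 1 shared nt it kept 57 of the 117 combined sites, or 48.7%, against 52.3% of all combined sites, and the 95% interval of the former by Wilson's method ran from 39.8% to 57.7%. That interval covers counting error alone, and sites of 1 RNA are not independent. With at least 50% of a site kept, the share was 34.2% against 43.9% of all combined sites. Among sites with a combined LOD above 1 it was 64.0% against 54.4%, and above 2 it was 75.7% against 55.9%. By RNA, with 1 shared nt, it kept 8 of 19 sites on NORAD, 36 of 75 on OIP5-AS1, 6 of 12 on GAS5 and 7 of 11 on SNHG1. Of the 51 sites in all 3 replicates it kept 46, or 90.2%, against 98.1% of all combined sites in all 3. The 5 it removed were 3 sites of NORAD, 1 of OIP5-AS1 and 1 of SNHG1. Of the 18 sites in 2 replicates it kept 10, or 55.6%, against 66.6%. Of the 25 sites in 1 replicate it kept 1, on OIP5-AS1, against 24.2%, and of the 23 in none it kept 0, against 10.4%. Of the bases of combined sites it kept 39.0% on NORAD, 39.1% on OIP5-AS1, 36.4% on GAS5 and 45% on SNHG1, against 45.3% over the whole list.

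With all sites, bases were called in all 3 replicates more often than over the whole lists. With lists of equal length NORAD was below the whole lists, OIP5-AS1 and SNHG1 were near them, and GAS5 stayed above. On NORAD, 780 of the 1780 nt called in any replicate, or 43.8%, were called in all 3, against 21.8% over the whole lists. The shares were 40.6% for GAS5 (195 of 480 nt), 34.6% for OIP5-AS1 (1835 of 5305 nt) and 34.3% for SNHG1 (230 of 671 nt). Of the bases called in replicate 1, 90.7%, 93.6%, 78.0% and 88.5% were called in all 3 on NORAD, OIP5-AS1, GAS5 and SNHG1, against 89.5% over the whole list. With 186157 sites in each list, all 3 replicates called 8.81% of the bases called in any replicate on NORAD. The same share was 21.4% on OIP5-AS1, 23.7% on SNHG1 and 44.6% on GAS5, against 22.6% over the whole lists. These shares rest on few sites, since replicates 2 and 3 each kept 2 on NORAD, 2 on SNHG1 and 3 on GAS5.

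Scores of sites found in a pair of replicates were closest in order between replicates 2 and 3. Across the 68 combined sites of the 4 RNAs with a site in replicates 2 and 3, Spearman's rho was 0.863. It was 0.647 across 52 sites for replicates 1 and 2, and 0.731 across 51 sites for replicates 1 and 3. On NORAD alone the values were 0.965 (12 sites), 0.80 (11 sites) and 0.891 (11 sites) for the same pairs. OIP5-AS1 had 0.807 (42 sites), 0.647 (29 sites) and 0.685 (29 sites). GAS5 had 0.771, 0.371 and 0.714 over 6 sites each. SNHG1 had 0.881 (8 sites) for replicates 2 and 3 and 0.371 (6 sites) for replicates 1 and 2. Sites of 1 RNA share its abundance and the libraries, so these coefficients are descriptions without a test.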

How the data were processed

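HuR immunoprecipitates of HEK293 lysate were sequenced in 3 replicates, grouped by their titles, with 3 serum controls that were not analysed here as separate values. Cutadapt 1.0 and TopHat2 2.0.8 with hg19 (GRCh37) are named in the submitters' processing notes. Each deposited interval has a LOD score, which the authors calculated in a way that the sources used here do not give. All scores are above 0. Sites overlapping the 4 intervals on the same strand were clipped to them, and their bases were counted per list with numpy 2.4.6, scipy 1.17.1 and pandas 2.3.3 in Python 3.11.15; the code was tested on simulated data. Coordinates are 1-based. Each combined site was paired with the replicate site sharing the most bases, so 1 replicate site could be paired with more than 1 combined site. The members, quantities and lists were chosen with earlier results of these data known, and the crowded stretch and the sequence features after seeing the files. Named sites are, for each RNA, the 3 highest combined scores, the widest site and the longest stretch called in all 3 replicates. Alternatives changed score thresholds, list sizes, overlaps, window lengths and replicates. Sequences come from GENCODE 29 and RefSeq, both on GRCh38; no hg19 sequence or annotation was used.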

Additional observations from a re-analysis of the deposited data

How the results depend on the processing

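Of 88 alternative values for 24 results, 36 were marked as moved and 52 were not. Shares and percentiles have no sign to reverse. For covered shares and window ranks, moved means by more than the SD over the 3 replicates. Recurrence and p-filter shares have no such SD, so moved does not mean beyond replicate spread there. Bases called in all 3 replicates gave 17 of the 36, and neighbouring bases are not independent. With the 186157 highest-scoring sites per list, the mean covered share was 8.37% on NORAD, 6.65% on OIP5-AS1, 5.63% on GAS5 and 5.43% on SNHG1, and the bases in all 3 replicates were 8.81%, 21.4% and 23.7% on NORAD, OIP5-AS1 and SNHG1. Bases in all 3 were 33.0% on OIP5-AS1 at LOD above 2 and 45.7% on GAS5 at LOD above 1. Without each replicate in turn, bases in both others ranged from 50.9% to 64.5% on NORAD, 40.4% to 67.2% on OIP5-AS1, 48.8% to 66.3% on GAS5 and 42.6% to 63.5% on SNHG1, and sites in both others from 38.7% to 56.0% on OIP5-AS1 and 45.5% to 72.7% on SNHG1; this changes the definition from 3 lists to 2. With 50% of a site shared, sites in all 3 replicates were 26.3% on NORAD and 18.7% on OIP5-AS1, and with 50% of a site kept the p filter kept 32.0% on OIP5-AS1, against 43.9% of all combined sites. At combined LOD above 1 the filter kept 66.7% on OIP5-AS1 (54.4% of all), and above 2 it kept 71.4% on OIP5-AS1, 88.9% on NORAD and 100% on GAS5 (55.9% of all). The flanks of OIP5-AS1 together were covered at 6.32% with 5 kb and 3.86% with 10 kb. Ranks in 2-kb windows were 97.0, 92.7, 83.9 and 90.0 for NORAD, OIP5-AS1, GAS5 and SNHG1, and 97.8 for OIP5-AS1 in 10-kb windows. Why these values moved was not tested. Unknown depth limits statements on missing sites. No paired analysis was possible because the serum controls have no site list here.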

Other observations

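OIP5-AS1 was the only one of the 4 RNAs with more than 1 combined site on the opposite strand. The minus strand of its interval carried 5, 8 and 10 sites in replicates 1, 2 and 3, covering 0.798%, 1.75% and 1.69% of its length, against 7.63%, 18.2% and 16.0% on the strand of the RNA. The combined list had 13 such sites, all from position 14804 on, and 4 of them shared bases with a site of OIP5-AS1 itself. The highest combined LOD among the 13, 9.52, was at chr15:41601321-41601405. That site was found in 2 replicates, was not kept by the p filter and shared bases with a site of OIP5-AS1 itself. The widest, chr15:41601666-41601835 with 170 nt, was found in all 3 replicates and kept by the p filter. In GENCODE 29 on GRCh38 the protein-coding gene OIP5 overlaps OIP5-AS1 on the opposite strand, and GAS5-AS1 and ZBTB37 overlap GAS5 in the same way. Which transcripts the opposite-strand sites belong to was not tested. The NORAD interval had 1 opposite-strand combined site, seen in replicate 3, and GAS5 and SNHG1 had none in any list.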
